A study of Homo sapiens with 6 samples.

Results

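The secreted antagonists of bone morphogenetic proteins (BMPs), activins and nodal were examined in SUM-LM1 breast cancer cells exposed to activin B. The set holds 10 genes, NOG, CHRD, BMPER, TWSG1, GREM1, CER1, FST, FSTL3, LEFTY1 and INHA, out of 19775 genes that could be named on the array. They were found by gene symbol in the platform annotation, which assigned 15 of the 54613 probe sets to exactly 1 of them. A further probe set carried the symbols of LEFTY1 and LEFTY2 together and was left out. SUM-LM1 is a derivative of the human breast cancer line SUM159 that was selected in vivo for its growth in the lung, so all samples share that origin. Cells from ordinary adherent culture were moved to ultra-low attachment plates at 12500 cells per ml, where they float as spheres, and received either recombinant human activin B at 50 ng/ml or vehicle (BSA in PBS) for 6 h. There were 3 biological replicates in either group, and from each one 50 ng of RNA was labeled for a Human Genome U133 Plus 2.0 array. One dose and one time were used in a single line.

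Activins, BMPs and nodal are dimeric ligands of the TGF-beta family that signal through pairs of type I and type II receptor kinases and then through SMAD proteins. Cells limit these signals outside the membrane with secreted proteins that bind the ligand or its receptor, and several of these antagonists are themselves known as targets of the pathway they limit. Noggin, chordin and gremlin trap BMPs, follistatin and its relative FSTL3 wrap activins, and inhibin alpha, cerberus and lefty act on activin or nodal signaling. The question asked here was whether cancer cells that met activin B altered the transcripts of these outer brakes.

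The deposited values are log2 signals. The median signal of an array was 6.69 to 6.70, and Pearson's r over all probe sets was 0.9935 to 0.9961 for pairs of arrays, none of which held identical values. The leading principal component carried 29.5% of the variance, and on it activin B replicate 3 stood apart at 21.7, whereas the other arrays lay between -10.6 and 5.70. It did not separate the groups. In replicate order the vehicle arrays lay at -10.6, -5.98 and 5.70, and the activin B arrays at -9.1, -1.7 and 21.7. As a check that the ligand acted, the inhibitors of basic helix-loop-helix factors ID1, ID2 and ID3 and the inhibitory SMAD7 were read. All 4 rose, by 4.77-fold, 2.78-fold, 7.21-fold and 1.55-fold (adjusted p = 7.74e-08, 6.52e-07, 6.81e-08 and 0.000313). The paper already names ID1, ID2 and ID3 among the genes most induced by activin B, so their rise was known beforehand. To judge whether a gene was measured above background, the 107 probe sets of 82 olfactory receptor genes, which a breast cancer line has little reason to transcribe, served as a reference. Their 95th percentile was a log2 signal of 6.75. Of 10 markers of the labelled cell type, 6 lay above this reference, VIM, CD44 and KRT18 far above it at 13.9, 12.5 and 12.0. The others above it were KRT8 at 9.02, ERBB2 at 8.02 and the hormone receptor ESR1, close to the reference at 6.82. The epithelial markers EPCAM, CDH1 and KRT19 and the hormone receptor PGR did not exceed it, and SUM159 is known as a mesenchymal-like line. Of markers of other cells, PECAM1 (1 of 4 endothelial) lay at 7.74 and CD3E (1 of 3 measured leukocyte) at 6.85, both above the reference, and neither of 2 hepatocyte markers did. None of these markers passed the test between groups.

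No secreted antagonist rose or fell with activin B at an adjusted p under 0.05. Among all probe sets, limma called 40 as rising (0.0732%) and 26 as falling (0.0476%), and among the 15 probe sets of the antagonists it called 0. NOG came closest, 1.28-fold higher with activin B at an adjusted p of 0.219. For the 14 other probe sets the smallest adjusted p was 0.841. At an unadjusted p under 0.05 there were 3 of 15 probe sets, 1 higher (NOG) and 2 lower (CER1 and INHA), against 5.28% of all probe sets. The groups did not overlap in 4 of the 15, those of NOG, CER1 and INHA and 1 of the 3 for FST, against 9.79% of all probe sets. With the probe set of highest mean signal standing for each gene, 3 genes had a higher mean and 7 a lower mean with activin B. The median log2 change was -0.05 over the 10 genes and 0.00 over all 19775 genes (-0.0017). The arrays read RNA pooled from many cells, so a change in the number of transcribing cells and a change in RNA per cell cannot be told apart.

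**Figure D1:**
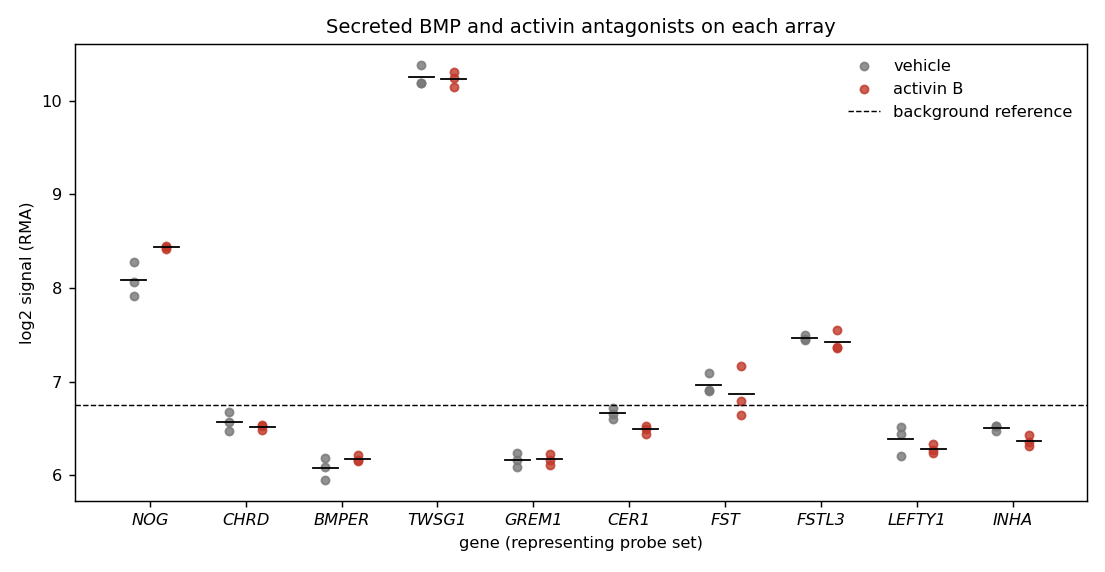
Log2 signal of the representing probe set of each antagonist on each of the 6 arrays, grey for vehicle and red for activin B, with group means as black bars and the background reference as a dashed line. TWSG1, NOG and FSTL3 lie above the line on all 6 arrays and FST on 5, the other genes lie below it, and in NOG the 3 activin B arrays lie above the 3 vehicle arrays.

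Only some of these genes gave a signal above background. The representing probe sets of 4 genes, NOG, TWSG1, FSTL3 and FST, had group means above the reference in both groups, and those of the other 6 genes had not in either group. Of the 15 probe sets, 10 stayed under the reference on every array. By the mean over the 6 arrays, 12023 of all 19775 genes and 46.8% of all probe sets lay above it.

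NOG encodes noggin, a secreted dimer that binds BMPs and covers their receptor contacts. Its single probe set (231798_at) read 7.92, 8.06 and 8.28 on the vehicle arrays and 8.42, 8.44 and 8.45 on the activin B arrays. Every activin B value was above every vehicle value, and the vehicle arrays were spread far more widely. The means were 8.09 ± 0.18 and 8.44 ± 0.013 (SD, n = 3). The log2 change was 0.35 ± 0.08 (SE), with a 95% confidence interval from 0.18 to 0.52, or 1.13-fold to 1.44-fold. By unadjusted p, NOG stood at place 147 among all probe sets, which left it outside the adjusted threshold. The looser thresholds of the study were a p under 0.05, an adjusted p under 0.25 and a log2 change over 0.5. By limma NOG met the limits on p (0.00059) and adjusted p (0.219), and its change was smaller than the log2 change required.

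Whether NOG passed depended on which array was left out. Without vehicle replicate 3, which had the highest NOG signal of its group, NOG was called (log2 change 0.45, adjusted p = 0.0455) and the count of rising antagonists went from 0 to 1. Without vehicle replicate 1, which had the lowest, the log2 change was 0.27 (adjusted p = 0.788). Without activin B replicate 3, the array that stood apart, the log2 change was 0.35 (adjusted p = 0.376). Vehicle replicate 3 also lay highest of its group on the leading principal component, at 5.70 against -5.98 and -10.6, and the part of that position in the NOG values was not tested.

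**Figure D2:**
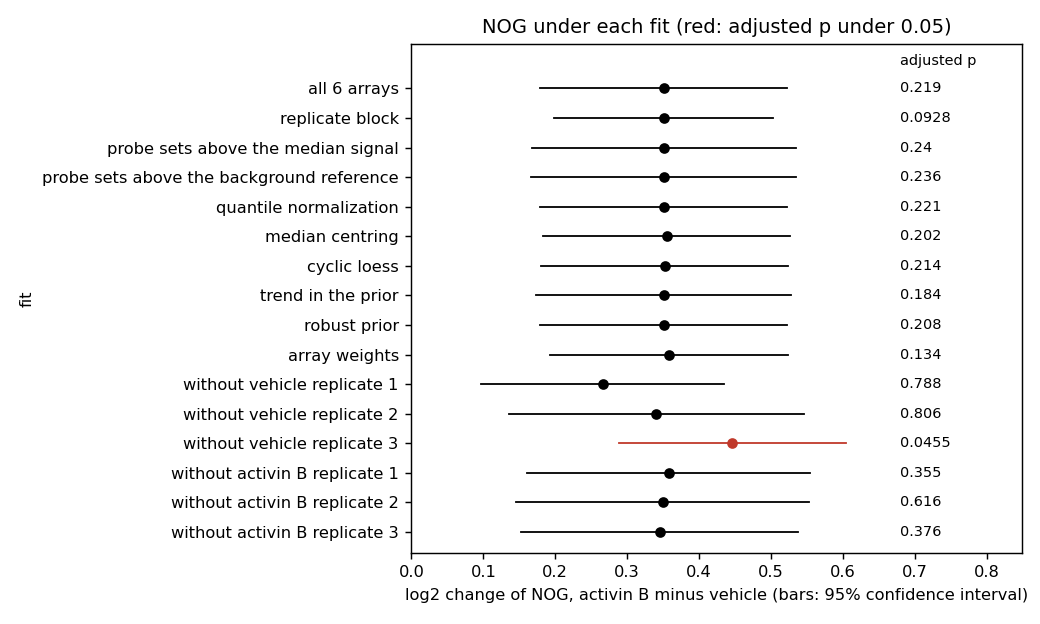
Log2 change of NOG, activin B minus vehicle, with its 95% confidence interval under the fit to all 6 arrays and 15 alternatives, and the adjusted p over all tested probe sets at the right. The change is above 0 in every fit, from 0.27 to 0.45, and 1 fit, without vehicle replicate 3, is past the threshold (red).

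Chordin and its partners form the next group. CHRD encodes chordin, which holds BMPs through cysteine-rich repeats until proteases of the tolloid family cut it. Its representing probe set (211248_s_at) read 6.57, 6.67 and 6.48 in vehicle and 6.54, 6.48 and 6.53 in activin B. The groups overlapped, and the log2 change was -0.06 ± 0.07 (SE; adjusted p = 0.999). The second CHRD probe set (221674_s_at) pointed the other way, with 6.41, 6.39 and 6.57 against 6.57, 6.73 and 6.51 and a log2 change of 0.15 ± 0.07 (SE; adjusted p = 0.959). Both lay under the background reference on all arrays, so these probe sets give no firm direction for chordin. BMPER, a chordin-like protein that modulates BMP4, read 6.09, 6.19 and 5.95 in vehicle and 6.15, 6.22 and 6.17 in activin B. The groups overlapped and all 6 values were under the reference (log2 change 0.10 ± 0.07, SE; adjusted p = 0.995).

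TWSG1 lay well above background on every array. It encodes twisted gastrulation, which binds both BMPs and chordin and tightens their complex. Its representing probe set (225406_at) read 10.18, 10.19 and 10.38 in vehicle and 10.31, 10.25 and 10.15 in activin B. The 2 ranges covered nearly the same span. The log2 change was -0.02 ± 0.07 (SE; adjusted p = 0.999), with a confidence interval from -0.17 to 0.14, or 0.887-fold to 1.10-fold. The second probe set (219201_s_at) read 7.75, 7.96 and 7.80 in vehicle and 7.78, 7.98 and 7.70 in activin B, again with overlap, and gave the same log2 change of -0.02 ± 0.08 (SE; adjusted p = 0.999).

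The DAN family members GREM1 and CER1 lay under background. GREM1 encodes gremlin, a BMP antagonist often made by tumor stroma, and its representing probe set (218469_at) read 6.24, 6.17 and 6.09 in vehicle and 6.12, 6.23 and 6.17 in activin B. These ranges overlapped, with a log2 change of 0.00 (0.0039 ± 0.0657, SE; adjusted p = 0.999). The other GREM1 probe set (218468_s_at) read 6.04, 6.21 and 6.25 against 6.00, 6.04 and 6.09, a log2 change of -0.12 ± 0.07 (SE; adjusted p = 0.986), also with overlap. CER1 encodes cerberus, which binds nodal, BMPs and activin in the embryo. It read 6.61, 6.66 and 6.72 in vehicle and 6.50, 6.53 and 6.45 in activin B. All vehicle values were above all activin B values, but the 6 values stayed under the reference, and the log2 change of -0.17 ± 0.06 (SE) did not pass (adjusted p = 0.841). Its interval ran from -0.31 to -0.04.

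Follistatins are the antagonists with the closest tie to the ligand used, since they bind activins with high affinity. FST, which encodes follistatin, was read by 3 probe sets that did not point one way. The representing one (204948_s_at) read 7.09, 6.91 and 6.90 in vehicle and 7.16, 6.79 and 6.64 in activin B. The activin B arrays held both the highest and the lowest value, 5 of the 6 arrays were above the reference, and the standard error was the largest of all antagonist probe sets (log2 change -0.10 ± 0.11, SE; adjusted p = 0.995). The interval, from -0.33 to 0.12, spans 0.797-fold to 1.09-fold. A second probe set (207345_at) read 6.18, 6.06 and 6.21 against 6.40, 6.22 and 6.25, with no overlap and a log2 change of 0.14 ± 0.07 (SE; adjusted p = 0.959). The last of them (226847_at) read 6.22, 6.27 and 6.28 against 6.25, 6.15 and 6.07, with overlap and a log2 change of -0.10 ± 0.07 (SE; adjusted p = 0.995). Both of these lay under the reference on every array, so the direction for FST differed between probe sets and none of them passed.

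FSTL3, a follistatin-like glycoprotein that neutralises activins and myostatin, was above the reference on all 6 arrays. It read 7.50, 7.44 and 7.46 in vehicle and 7.36, 7.37 and 7.55 in activin B. Activin B replicate 3 was the highest of all arrays and the other activin B arrays were the lowest. The log2 change was -0.04 ± 0.07 (SE; adjusted p = 0.999), with an interval from 0.879-fold to 1.08-fold. Without activin B replicate 3 the log2 change was -0.10.

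LEFTY1 and INHA resemble the ligands themselves. LEFTY1 encodes a lefty protein, an atypical TGF-beta family member that blocks nodal signaling, and INHA encodes the alpha subunit that pairs with activin beta subunits to form inhibins. LEFTY1 (206268_at) read 6.51, 6.21 and 6.45 in vehicle and 6.24, 6.27 and 6.34 in activin B. The groups overlapped, and the log2 change was -0.11 ± 0.08 (SE; adjusted p = 0.995). INHA (210141_s_at) read 6.53, 6.53 and 6.48 in vehicle and 6.36, 6.43 and 6.32 in activin B. All its activin B values were under all its vehicle values, yet every value was under the reference, and the log2 change of -0.14 ± 0.06 (SE; interval -0.28 to -0.01) did not pass (adjusted p = 0.934).

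**Figure D3:**
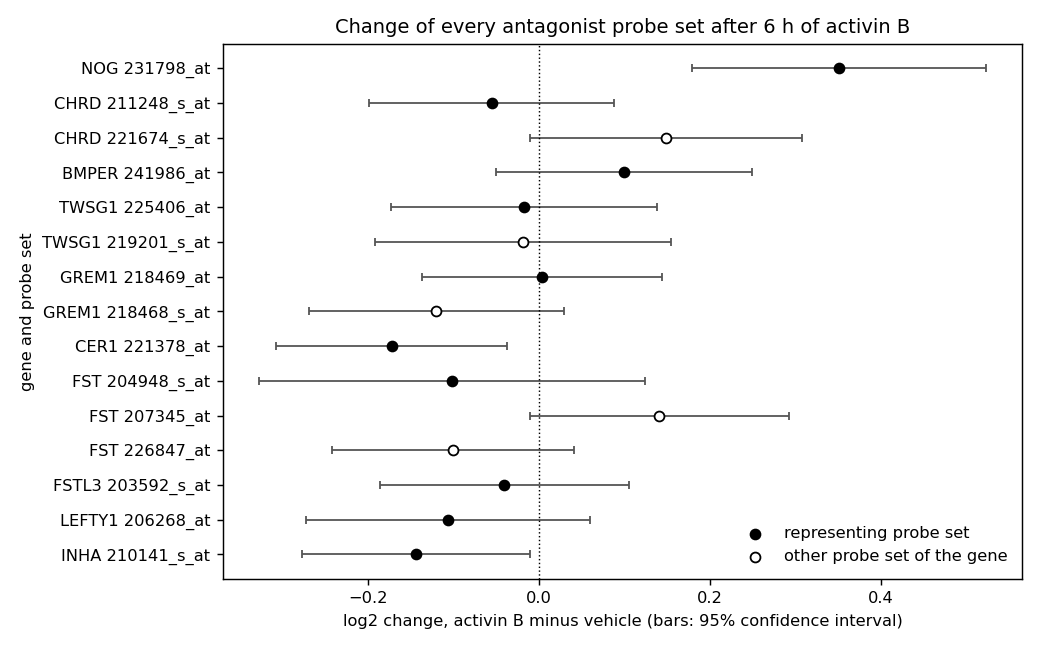
Log2 change of all 15 antagonist probe sets, activin B minus vehicle, as points with 95% confidence intervals from limma, filled for the probe set that represents its gene and open for the others. The interval of NOG lies wholly above 0, those of CER1 and INHA lie wholly below it, the rest include 0, and none passes after adjustment over all probe sets.

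Over the 9 representing probe sets other than that of NOG, log2 changes lay between -0.17 and 0.10, and the intervals between 0.797-fold and 1.19-fold. The other probe sets of CHRD and FST reached higher, to 1.24-fold for 221674_s_at and 1.22-fold for 207345_at. For the 6 genes under the background reference these intervals apply to the probe signal, and not to a transcript level.

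Promoter sequence was set beside these values for the antagonists that had a promoter window, whether or not they were measured above background. RefSeq windows (GRCh38.p14, 250 bases before to 50 after the start) matched 8 of the 10 genes, 10 windows in all, and NOG and LEFTY1 were not among them. Each window was searched on both strands for GGCGCC, a GC-rich element described for SMAD1/5, for the SMAD palindrome GTCTAGAC, and for CAGACA, which contains the core of the CAGA box. GGCGCC is in 19.2% of all 35116 windows, GTCTAGAC in 0.202% and CAGACA in 16.9%. Of the 8 genes, BMPER, CHRD, FSTL3 and GREM1 had GGCGCC, CER1, GREM1 and INHA had CAGACA, and none had GTCTAGAC. The shares above count windows and not genes. The antagonist windows with GGCGCC were 69.7% to 81.3% G or C, against a median of 58.7% over all windows. The part of this base content in the matches was not tested. The 3 sequences that follow are the 250 bases before the start of FST (plus strand, chr5:53480379-53480628), FSTL3 (plus strand, chr19:676142-676391) and TWSG1 (plus strand, chr18:9334523-9334772), shown because these genes were measured above background and did not pass the test. Capitals mark a match to a motif that was searched.
FST: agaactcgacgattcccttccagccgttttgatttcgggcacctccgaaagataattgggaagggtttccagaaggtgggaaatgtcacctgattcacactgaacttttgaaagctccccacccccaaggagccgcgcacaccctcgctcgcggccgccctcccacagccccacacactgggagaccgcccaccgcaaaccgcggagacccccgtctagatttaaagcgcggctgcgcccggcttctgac
FSTL3: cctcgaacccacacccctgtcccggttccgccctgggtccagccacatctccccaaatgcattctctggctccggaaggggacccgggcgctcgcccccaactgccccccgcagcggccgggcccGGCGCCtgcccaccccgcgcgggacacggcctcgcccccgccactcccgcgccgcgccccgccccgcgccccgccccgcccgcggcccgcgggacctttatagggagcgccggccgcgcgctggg
TWSG1: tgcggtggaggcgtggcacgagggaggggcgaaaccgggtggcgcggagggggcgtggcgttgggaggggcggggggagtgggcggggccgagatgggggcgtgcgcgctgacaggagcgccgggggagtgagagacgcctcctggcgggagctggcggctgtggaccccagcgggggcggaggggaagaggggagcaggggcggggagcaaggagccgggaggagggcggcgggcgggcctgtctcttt
In the bases shown FSTL3 holds 1 GGCGCC, and its whole window holds 2. FST and TWSG1 hold none of the 3 motifs in the whole window. A match describes letters in the window and shows no binding.

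Other secreted antagonists of the family, listed together with proteins related to them, gave no call either. Of 14 measured genes in this group, 0 rose and 0 fell by limma, and 2 were higher at an unadjusted p under 0.05. They were FSTL4, a follistatin-like protein (log2 change 0.22 ± 0.08, SE; adjusted p = 0.837), and SOST, which encodes sclerostin (0.15 ± 0.07, SE; adjusted p = 0.934). Both had a mean signal over the 6 arrays under the background reference, 6.66 for FSTL4 and 6.26 for SOST. By group, the FSTL4 mean was 6.54 with vehicle, under the reference, and 6.77 with activin B, above it. With its probe sets averaged, the log2 change of FSTL4 was 0.04. Over the 14 genes the median log2 change was 0.03. Among all genes, 0.101% rose and 0.091% fell, and at an unadjusted p under 0.05, 3.14% were higher and 2.75% lower.

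The ligands that antagonists hold, the receptors, and the enzymes that release or mature ligands also gave 0 calls, out of 15, 15 and 7 measured genes. BMP2, a ligand that noggin binds, had the largest change of the ligands, and its mean went from 8.10 ± 0.12 with vehicle to 8.40 ± 0.08 with activin B (SD, n = 3). Its log2 change of 0.30 ± 0.07 (SE) did not pass (adjusted p = 0.318). GDF3, a nodal-related ligand, was next by p (0.14 ± 0.06, SE; adjusted p = 0.934). Its mean was 6.68 with vehicle, under the background reference, and 6.82 with activin B, above it. ACVR1C, a type I receptor for activin B and nodal, and TGFBR3, the betaglycan coreceptor that inhibins use, gave log2 changes of -0.18 ± 0.07 (SE, adjusted p = 0.859) and -0.15 ± 0.07 (SE, adjusted p = 0.934). Among the enzymes, PCSK6, a convertase that cleaves ligand precursors, gave -0.16 ± 0.06 on the log2 scale (SE; adjusted p = 0.88), and TLL1, a tolloid-like protease that cuts chordin, gave -0.08 ± 0.06 (SE; adjusted p = 0.995). TLL1 lay under the background reference on every array. At an unadjusted p under 0.05, 2 of 15 ligands were higher, 2 of 15 receptors were lower and 1 of 7 enzymes was lower, against the 3.14% and 2.75% of all genes. The genes named here were picked by p. Their groups did not overlap in BMP2, GDF3, ACVR1C, PCSK6 and TLL1 and overlapped in TGFBR3, against no overlap in 9.79% of all probe sets.

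Brakes inside the cell or in its membrane were also read. All 11 of these genes had a mean above the background reference, against 4 of the 10 secreted antagonists and 6 of the 14 listed beside them. Among all genes it was 12023 of 19775. The groups thus differed in how well they were measured. Of the 11, SMAD7, the SMAD corepressor SKIL and the decoy receptor BAMBI rose, 0 fell and 8 did not pass, with a median log2 change of 0.12. Among all genes 0.101% rose and 0.091% fell. At an unadjusted p under 0.05, 5 of the 11 were higher, against 3.14% of all genes. The folds were 1.55 for SMAD7, 1.58 for SKIL and 1.42 for BAMBI (adjusted p = 0.000313, 0.00142 and 0.0108). PMEPA1, which sequesters SMADs, and SMAD6, an inhibitor of BMP SMADs, gave 0.33 ± 0.07 and 0.32 ± 0.08 on the log2 scale (SE) and did not pass (adjusted p = 0.161 and 0.336). The value of SMAD6 came from 1 probe set, and it was -0.04 from a probe set without the s or x ending and 0.13 as the mean over its probe sets, so its direction was not settled. Of 14 BMP SMAD targets 8 rose and 0 fell (ID1, ID2, ID3, DLX1, DLX2, GATA2, ATOH8 and SMAD9), with a median of 0.55. MSX2 and RUNX2 were the remaining targets with the smallest p, and their log2 changes of -0.15 and -0.11 did not pass (adjusted p = 0.959 and 0.986). BAMBI no longer passed once vehicle replicate 2 was left out, at a log2 change of 0.47 (adjusted p = 0.135) in place of 0.51. SKIL and GATA2 no longer passed as means over their probe sets, where their log2 changes were 0.17 and 0.23 (adjusted p = 0.413 and 0.184) in place of 0.66 and 0.67. These lists were written with earlier results of the same arrays known, and whether secreted and internal brakes differ as groups was not tested.

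**Figure D4:**
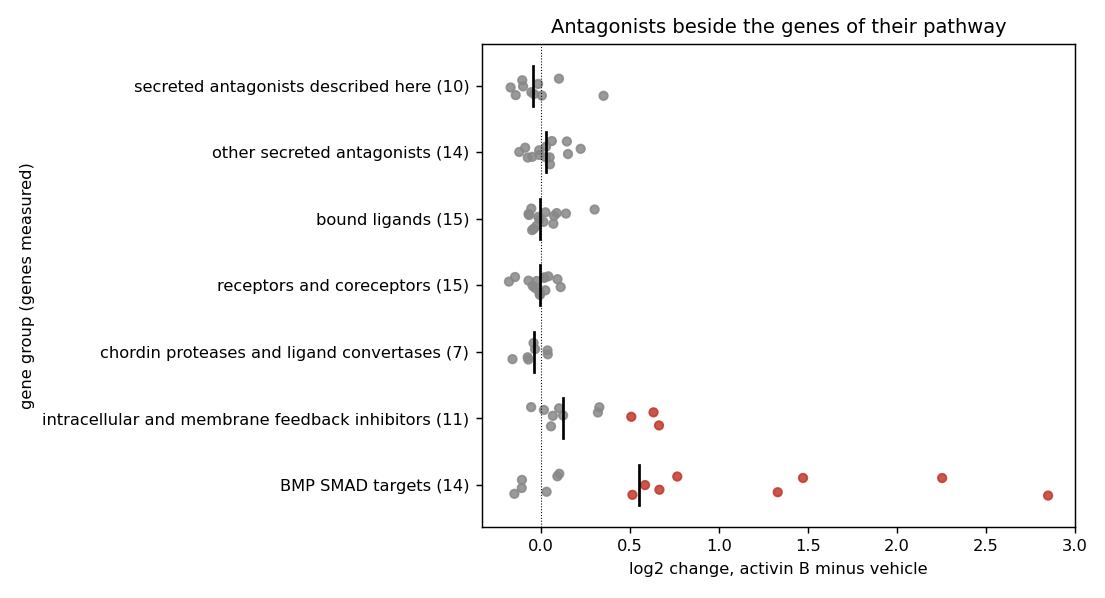
Log2 change of each measured gene in 7 groups of the pathway, activin B minus vehicle, with the number of genes after each group name, colored red where the adjusted p was under 0.05, and with the group medians as black bars. The antagonists, ligands, receptors and enzymes hold no red point, the internal brakes hold 3 and the BMP SMAD targets hold 8.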

How the data were processed

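Gene expression was measured on 6 arrays, 3 per group, grouped by the sample titles. The deposited values are log2 signals that the authors, per their methods, made by robust multiarray averaging of the scanner files in Chipster 3.8.0, which equalizes distributions between arrays and so removes any change shared by most transcripts. Of 54613 probe sets left after 62 array controls, 41091 carried 1 symbol, 1801 several and 11721 were unnamed here. Groups were compared in limma 3.58.1 (R 4.3.3) by a linear model per probe set with empirical Bayes moderation (4 residual and 10.8 prior degrees of freedom), with Benjamini-Hochberg adjustment over all probe sets and a threshold of 0.05. Each gene was represented by its probe set of highest mean. Errors are standard errors of this model unless marked SD. The samples are called biological replicates, but nothing says how they were separated, so the tests reflect variation among these arrays, which may be technical, and with 3 in each group their number limits the precision.

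The antagonists, the gene lists and the tests were chosen with earlier results of these data known. Named genes were all 10 antagonists, and from each other list the called genes and the 2 others with the smallest p. Of listed genes, 2 ligands, 2 receptors, 3 other antagonists or related proteins and 1 leukocyte marker had no matched probe set. Alternatives were a replicate block, filters on dim probe sets, other normalizations of the deposited values, other priors, array weights, leaving out single arrays, averaging the probe sets of a gene, using only those without the s or x ending, and the looser thresholds of the study. Figures were drawn with matplotlib 3.10.9.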

Additional observations from a re-analysis of the deposited data

How the results depend on the processing

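The count of 0 antagonist probe sets, rising or falling, held in all alternatives except that without vehicle replicate 3, in which NOG passed. Leaving out each array in turn gave 0 to 1 rising probe sets and 0 to 1 rising genes. With the replicate number as a replicate block, no antagonist was called (NOG 0.35, adjusted p = 0.0928). The arrays were not taken as pairs, since the titles do not say that same-numbered samples were handled together. Deviations from the group means correlated at 0.162, 0.041 and 0.192 for the 3 numbers, and each array correlated best with its own number. On the leading principal component and in the NOG values, replicate 1 was lowest and replicate 3 highest in both groups. The cause of this shared order was not tested. The block raised the number rising among all probe sets from 40 to 53 and the number falling from 26 to 44. Leaving out arrays gave 25 to 50 rising and 7 to 26 falling. Over the alternatives the log2 change of NOG lay between 0.27 and 0.45 (adjusted p from 0.0455 to 0.806), and the lowest adjusted p of any other antagonist was 0.507, for CER1.

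Some genes changed sign. CHRD was 0.0468 and GREM1 -0.058 with all probe sets of a gene averaged, and FST was 0.14 from a probe set without the s or x ending. TWSG1 was 0.0027 with array weights. Leaving out arrays gave -0.0547 to 0.0485 for TWSG1, -0.0331 to 0.0402 for GREM1 and -0.25 to 0.0116 for FST. SMAD6, at 0.32 with its representing probe set, was -0.0388 without the s or x ending, and MSX2 was 0.12 there and 0.0375 with averaging. None of these values passed, and the cause was not tested. The filters on dim probe sets removed the 6 antagonists under the reference and gave no value for them. Signals that close to background, and 3 arrays per group, limit what can be detected.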
